A study of Rattus norvegicus with 10 samples.

Results

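The genes described here are 34 rat genes of sugar breakdown and of the response to low oxygen, listed by symbol: 17 enzymes of glycolysis and lactate formation, 4 glucose and lactate transporters, 3 regulatory kinases, 4 genes of the hypoxia-inducible factor (HIF) system and 6 hypoxia targets. Each gene was read from the probe set (the group of short probes on the array that reports 1 transcript) whose annotation gives exactly 1 symbol and whose mean signal over all arrays was the highest. Of 14217 genes with such a probe set, 33 were among the 34. Pkm, which encodes pyruvate kinase, had only a probe set annotated with several symbols and has no value here. Of the 33, 30 were bright enough to enter the test across all probe sets, and Hk2, Slc16a3 and Car9 were not.

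RNA came from the pituitary's neurointermediate lobe. The rats were male Sprague Dawley animals of 10 to 12 weeks, either dehydrated for 3 days or euhydrated controls. Each group had 5 arrays, and every array carried RNA pooled from 5 animals. The lobe holds axon endings of vasopressin and oxytocin neurons, glial pituicytes, melanotrophs and vessels. The series' own design text names the supraoptic nucleus instead, and the tissue given by every sample label was followed.

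Glycolysis splits glucose into pyruvate in the cytosol and yields ATP without oxygen. Its early steps consume ATP and its late steps return it, and lactate dehydrogenase regenerates the NAD that the pathway needs when oxygen is short. HIF is a transcription factor whose alpha subunits are marked for destruction by prolyl hydroxylases while oxygen is plentiful. When oxygen falls the subunits persist, bind the short DNA core ACGTG or GCGTG, and raise transcription of most glycolytic enzymes, of glucose transporters and of genes for vessel growth and mitochondrial removal. In nervous tissue, glia and axon terminals both rely on this pathway for fuel.

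Tissue identity was checked on lists of marker genes. Avp and Oxt, the vasopressin and oxytocin transcripts, were abundant (signals of 812 ± 75.5 and 1122 ± 58.6 in controls, SD, n = 5), and both rose, 2.60-fold and 1.78-fold. All 5 melanotroph markers with a probe set entered the test. Of these, Pcsk2, a prohormone convertase, fell without overlap (391 ± 106 against 715 ± 107, limma adjusted p = 0.00219), and Pomc, Tbx19, Drd2 and Scg5 did not pass (log2 changes -0.09 to 0.08). Of 14 pituicyte and astroglia markers, Slc1a2 and Aldh1l1 were too dim. Anterior lobe hormone genes were present on every array, and their signals summed to 4837 to 9424 on dehydrated and 2587 to 7973 on control arrays. Of 6 tested, Fshb fell (56.4 ± 3.93 against 110 ± 33.5, limma adjusted p = 0.00507) and none rose. The other 5 did not pass, with log2 changes from 0.00 for Prl to 1.17 for Tshb (459 ± 242 against 205 ± 161, limma adjusted p = 0.260). Of 7 macrophage and microglia markers, Aif1 rose (log2 change 0.42, limma adjusted p = 0.0375) and none fell. The other 6 did not pass, with log2 changes from -0.74 for Cd68 (62.6 ± 24.5 against 105 ± 25.0, limma adjusted p = 0.0810) to 0.37 for C1qa. Of all tested probe sets, 0.784% fell and 1.68% rose. Some markers of several cell types thus moved with the group, and the part of these cells in the values below was not tested. The log2 ratio of 3' to 5' control probes, which increases as RNA is shortened, was 1.61 to 2.67 on dehydrated and 1.26 to 2.52 on control arrays (mean difference 0.37, exact two-sided permutation p = 0.214, where 0.00794 is the smallest that 5 against 5 arrays allow). This ratio is the mean over the control probe sets of GAPDH, itself a glycolytic enzyme, and beta-actin. The 3' GAPDH signal was 1313 to 2099 on dehydrated and 1661 to 2439 on control arrays. Dehydrated 5 had the lowest ratio of its group and control 1 the highest of its own. Without these 2 arrays the ratio was higher on every dehydrated array than on every control array (2.05 to 2.67 against 1.26 to 1.91).

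The comparison of dehydrated with control lobes asks whether the transcripts of this fuel pathway and of the oxygen response differ after water deprivation. Eno3, Tpi1 and Ankrd37 fell, and none of the 30 tested genes rose. These 3 were 10.0% of the 30 tested genes (limma, an adjusted p under 0.05 over all 18625 tested probe sets), where 2.46% of all tested probe sets passed, 0.784% as lower and 1.68% as higher. Most of the 30 were bright. In the fit of the brightest 40% of probe sets, 4.16% passed, beside 3 of the 27 genes tested there (2 lower and 1 higher). At an unadjusted limma p under 0.05 there were 11 of 30, 6 lower and 5 higher, against 17.4% of all probe sets (8.66% lower and 8.70% higher). The exact permutation test gave 5 lower and 5 higher at the same limit. Its share over all probe sets was not computed, so the exact counts here and below have no such value beside them. In 4 genes the dehydrated and control arrays did not overlap, which was 13.3% against 4.59% of all probe sets. Pfkm, Eno3 and Ankrd37 were wholly lower (1.81% of all probe sets were) and Slc2a3 wholly higher (2.78%). The genes were chosen with earlier results of these data known, so none of these shares tests the genes as a set. Leaving out dehydrated 5 raised the share of all probe sets that passed to 6.21%, leaving out dehydrated 5 and control 1 raised it to 7.51%, and adjusting for the ratio of 3' to 5' probes lowered it to 1.81%, with 5, 4 and 2 of the 30 genes passing. Only Eno3 passed in 8 of the 10 fits that left out 1 array, and likewise without a filter on dim probe sets, with median centring and without an intensity trend. The changes were small: only Eno3 reached 0.5 on the log2 scale, and for 23 genes the 95% interval lay wholly between -0.5 and 0.5.

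**Figure D1:**
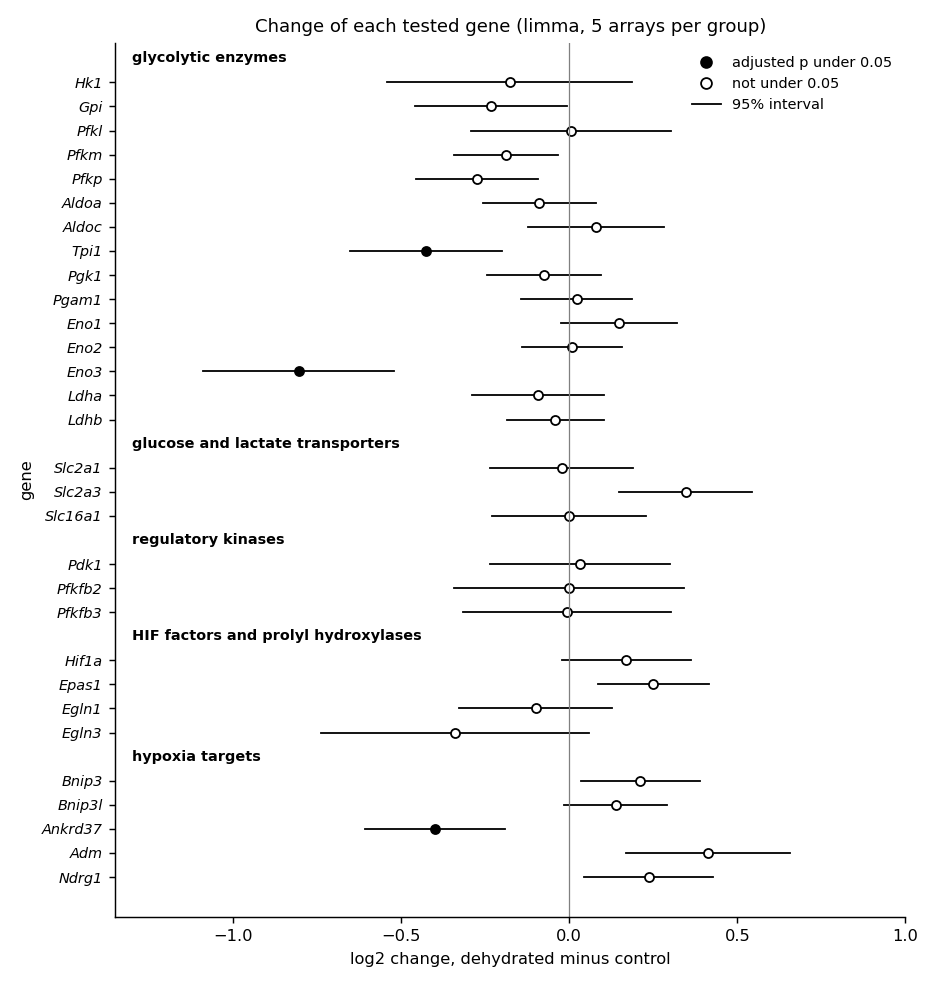
Log2 change (dehydrated minus control, on the log2(signal + 5) scale) of the 30 tested genes, grouped by role, with 95% intervals from limma and filled points at an adjusted p under 0.05. The 3 filled points, Eno3, Tpi1 and Ankrd37, lie below 0, at -0.80, -0.42 and -0.40.

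Among the glycolytic enzymes, 2 of 15 tested fell, none rose and 13 did not pass, where 0.784% of all tested probe sets fell and 1.68% rose. At an unadjusted p under 0.05 the same test gave 5 lower and 0 higher (8.66% and 8.70% of all tested probe sets). The exact permutation test gave 4 lower and 0 higher. The median change was -0.09 on the log2 scale, beside -0.01 over all tested probe sets, and 10 of 15 changes were negative (66.7%, against 52.6% of all tested probe sets). The median stayed negative under every scaling tried, from -0.17 with quantile normalization to -0.05 with median centring. Adjusting for the ratio of 3' to 5' probes gave a median of -0.08, with 11 of 15 changes negative. Of the 5 lower enzymes, Gpi then moved from -0.23 to -0.11, Pfkm from -0.19 to -0.12 and Tpi1 from -0.42 to -0.30. Eno3 stayed at -0.80 and Pfkp moved from -0.27 to -0.29. Hk1, not among the 5, turned from -0.18 to 0.07. The count of 5 lower thus belongs to the reported fit, without this adjustment.

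Hk1 encodes the hexokinase that traps glucose in the cell. It read 123 to 262 on dehydrated and 155 to 267 on control arrays, with the highest value of each group on dehydrated 5 and control 5, and did not pass (log2 change -0.18 ± 0.17 SE, limma adjusted p = 0.645). Hk2, the insulin-responsive hexokinase, was too dim for the test. Its signals were 12.5, 11.2, 16.4, 9.50 and 2.70 on dehydrated and 12.9, 14.6, 16.8, 14.5 and 26.3 on control arrays. Most dehydrated arrays were below every control array, but dehydrated 3 was not, and no detection calls were at hand to set such signals against background (exact permutation p = 0.0476).

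Gpi, the isomerase that follows hexokinase, read 433, 390, 473, 580 and 609 on the dehydrated arrays and 559, 543, 624, 552 and 608 on the controls. Dehydrated 1, 2 and 3 were below every control, while dehydrated 4 and 5 lay within the control range, and the difference did not pass (log2 change -0.23 ± 0.11 SE, limma adjusted p = 0.276).

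Phosphofructokinase commits sugar to glycolysis and has a muscle, a platelet and a liver form. Pfkm, the muscle form, read 546, 519, 615, 587 and 607 on dehydrated and 621, 623, 690, 622 and 723 on control arrays. Every dehydrated array was below every control, yet the change was small and did not pass (log2 change -0.19 ± 0.07 SE, limma adjusted p = 0.198). Another tested probe set of Pfkm, much dimmer, gave -0.64 ± 0.29 SE (adjusted p = 0.276). A further one, too dim for the test, had the higher mean on dehydrated arrays (25.5 ± 8.70 against 16.4 ± 9.58, SD, n = 5). Pfkp, the platelet form, read 378, 348, 278, 297 and 342 against 408, 364, 405, 400 and 405, and only dehydrated 1 lay above a control array (log2 change -0.27 ± 0.09 SE, adjusted p = 0.105). Pfkl, the liver form, had the same mean in both groups within its spread (68.7 ± 12.1 and 68.1 ± 9.34, SD, n = 5).

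Aldolase splits the sugar bisphosphate. Aldoa, its widespread form, read 2118 to 2319 on dehydrated and 1952 to 2602 on control arrays, so the dehydrated values lay inside the control range. Aldoc, the form typical of astroglia, read 433, 382, 463, 553 and 527 against 430, 407, 475, 422 and 482, with dehydrated 4 and 5 above every control (log2 change 0.08 ± 0.10 SE, limma adjusted p = 0.720). Of 12 tested markers of pituicytes and astroglia, 3 rose and 0 fell: Gfap, the astroglial filament (log2 change 2.38), Lhx2 (0.39) and Slc1a3 (0.36). Of all tested probe sets, 1.68% rose. The other 9 did not pass, with log2 changes from -0.23 for Fabp7 to 0.24 for Vim. The 95% interval of the Aldoc change was -0.12 to 0.28.

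Tpi1 encodes triose phosphate isomerase, which makes both products of the aldolase step usable. Its signals were 870, 881, 893, 1114 and 1215 on dehydrated arrays 1 to 5 and 1217, 1216, 1600, 1196 and 1436 on controls 1 to 5. All dehydrated arrays except dehydrated 5 were below every control, and dehydrated 5 was above control 4 only. The gene fell by 0.42 on the log2 scale (± 0.11 SE, 1.34-fold lower, limma adjusted p = 0.0459). The call lay near the threshold. It ended in 8 of 10 fits that left out 1 array (all except those without dehydrated 4 or dehydrated 5, with an adjusted p of at most 0.133). In these 10 fits the log2 change lay between -0.50 (without dehydrated 5) and -0.36 (without control 3). Adjusting for the ratio of 3' to 5' probes gave -0.30 (adjusted p = 0.126), and the call also ended without a filter on dim probe sets (0.104), with median centring (0.0653) and without an intensity trend (0.132). Without dehydrated 5 and control 1 it was -0.53 (adjusted p = 0.00754). On those 8 arrays the ratio of 3' to 5' probes differed between the groups as well.

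The middle enzymes with a value did not pass. Gapdh, listed among the other glycolysis genes, has no value here. It had no probe set annotated with exactly 1 symbol apart from the array controls. Pgk1, the kinase that first returns ATP, read 1459 to 1899 on dehydrated and 1633 to 1980 on control arrays (log2 change -0.08 ± 0.08 SE), and its other tested probe set gave -0.02 ± 0.07. Pgam1, the mutase, read 2238 to 2791 and 2164 to 2659 (log2 change 0.02 ± 0.08 SE). The limma adjusted p of both genes was at least 0.677.

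Enolase has 3 genes with different tissues. Eno3, the form best known from muscle, read 37.5, 44.8, 34.1, 38.5 and 53.0 on dehydrated arrays 1 to 5 and 87.3, 74.1, 73.6, 65.6 and 78.6 on controls 1 to 5. The highest dehydrated array was below the lowest control, with a clear gap. It fell by 0.80 on the log2 scale (± 0.13 SE, 95% interval -1.09 to -0.52, 1.75-fold lower, limma adjusted p = 0.00351), the largest change among the 30 genes. The call held in all 21 alternatives in which the probe set was tested (adjusted p 0.00107 to 0.0145), including the one adjusted for the ratio of 3' to 5' probes (-0.80, adjusted p = 0.00797). In a tissue extract, fewer cells that carry a transcript and less of it per cell cannot be told apart.

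Since Eno3 marks muscle, skeletal muscle markers were read beside it. Of 9 with a probe set, Ckm, Myh4, Myh2, Tnnt3, Actn3 and Mb were too dim for the test, and none of the other 3 passed. Acta1 read 33.7 ± 10.9 on dehydrated and 46.7 ± 7.17 on control arrays (SD, n = 5, limma adjusted p = 0.242), Tnni2 read 31.6 ± 11.9 and 28.2 ± 6.29, and Myh1 read 948 ± 137 and 800 ± 138. The summed signal of the 9 markers, which is mostly Myh1, ranged from 850 to 1226 on dehydrated and from 807 to 1130 on control arrays. Their part in the Eno3 values was not tested.

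Eno1, the widespread enolase, read 1500, 1179, 1548, 1530 and 1425 on dehydrated and 1408, 1168, 1260, 1270 and 1354 on control arrays. All dehydrated arrays except dehydrated 2 were above every control, and the difference did not pass (log2 change 0.15 ± 0.08 SE, limma adjusted p = 0.372). Eno2, the neuronal and endocrine form, read 1202 to 1312 and 1077 to 1377, a change of 0.01 ± 0.07 SE with a 95% interval of -0.14 to 0.16. The interval of Eno3 lies wholly below those of Eno1 and Eno2, although the difference between the 3 was not itself tested.

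Lactate dehydrogenase ends the anaerobic branch. Ldha, the HIF-responsive subunit that favours lactate formation, read 519, 595, 604, 676 and 684 on dehydrated and 684, 568, 720, 583 and 730 on control arrays, with wide overlap (log2 change -0.09 ± 0.09 SE, 95% interval -0.29 to 0.10, limma adjusted p = 0.658). Ldhb, the subunit of oxidative tissue, read 1094 to 1346 and 1194 to 1308 (log2 change -0.04 ± 0.07 SE, adjusted p = 0.806).

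**Figure D2:**
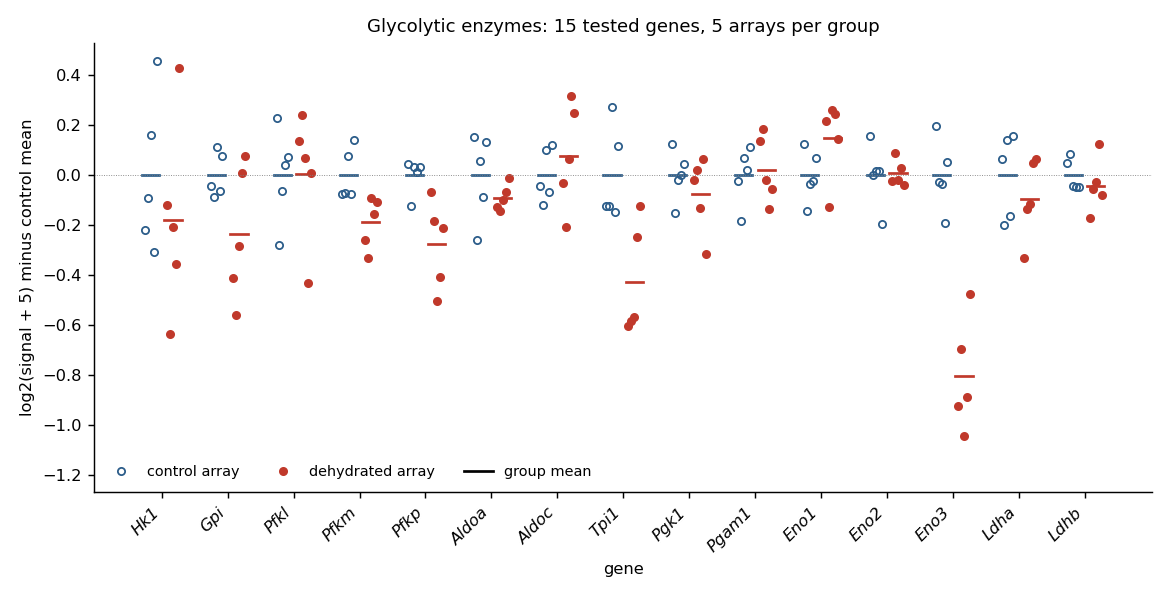
Signal of the 15 tested glycolytic enzymes on each array, as log2(signal + 5) minus the control mean of the gene, with 5 control arrays (open circles), 5 dehydrated arrays (filled circles) and lines at the group means. Only Eno3 and Pfkm have all dehydrated arrays below all control arrays, and Tpi1 has all but dehydrated 5.

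Of the transporters, 3 of 4 were tested and none passed. At an unadjusted limma p under 0.05, 1 was higher and 0 lower (8.70% and 8.66% of all tested probe sets), and likewise by the exact permutation test. Slc2a3 encodes the high-affinity glucose carrier of neurons. It read 179, 175, 156, 168 and 185 on dehydrated and 128, 149, 142, 144 and 113 on control arrays. Every dehydrated array was above every control, with a log2 change of 0.35 ± 0.09 SE (1.27-fold, 95% interval 0.15 to 0.54), just outside the threshold (limma adjusted p = 0.0625). It passed with cyclic loess normalization (adjusted p = 0.0490) and among the brightest 40% of probe sets (0.0494), and in no fit that left out an array (0.0684 to 0.140).

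Slc2a1, the glucose carrier of the blood-brain barrier and a classical HIF target, read 128 to 158 on dehydrated and 129 to 170 on control arrays (log2 change -0.02 ± 0.10 SE, limma adjusted p = 0.939). Slc16a1, the widespread lactate carrier, read 99.8 to 142 and 107 to 134 (adjusted p = 0.998). Slc16a3, the lactate exporter of strongly glycolytic cells, was too dim for the test, at 15.1 to 30.1 and 14.6 to 32.7 (exact permutation p = 0.881).

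None of the 3 regulatory kinases passed, and none had an unadjusted limma p or an exact permutation p under 0.05. Pdk1, which closes the entry of pyruvate into mitochondria, read 107 to 123 on dehydrated and 78.1 to 136 on control arrays (log2 change 0.03 ± 0.13 SE). Its other tested probe set, which was dimmer, gave 0.23 ± 0.18 SE (limma adjusted p = 0.560). Pfkfb2 and Pfkfb3, which make the sugar phosphate that activates phosphofructokinase, had log2 changes of 0.00 ± 0.16 and -0.01 ± 0.15 SE. Another tested probe set of Pfkfb2, also dimmer, gave 0.16 ± 0.28 SE. For the probe sets used, the limma adjusted p was at least 0.929 for all 3 genes. Control arrays of Pfkfb2 spread more widely (83.9 to 171) than dehydrated arrays (112 to 149).

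None of the 4 genes of the HIF system passed. At an unadjusted limma p under 0.05, 1 was higher and 0 lower (8.70% and 8.66% of all tested probe sets), and also by the exact permutation test. Epas1 encodes the alpha subunit of HIF-2, prominent in vessels. It read 1102, 1221, 1131, 965 and 927 on dehydrated and 877, 944, 915, 880 and 856 on control arrays, and only dehydrated 5 lay below a control, control 2. The log2 change was 0.25 ± 0.08 SE (1.19-fold, limma adjusted p = 0.104). Epas1 passed without dehydrated 5 (0.30, adjusted p = 0.0242) and without dehydrated 5 and control 1 (0.29, adjusted p = 0.0379). Without those arrays the ratio of 3' to 5' probes differed between the groups as well. In the other 20 alternatives Epas1 did not pass. Adjusting for that ratio gave 0.19 (adjusted p = 0.280), and quantile normalization gave 0.18 (adjusted p = 0.220).

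Endothelial and mural markers were read beside Epas1. Of 10 tested, 4 rose and none fell, where 1.68% of all tested probe sets rose. This list too was chosen with earlier results of these data known. Flt1, Rgs5 and Kdr had the largest log2 changes (0.90, 0.72 and 0.63), and Emcn was the other that rose (0.51). The remaining 6 did not pass, from Tie1 at -0.26 through Cldn5 at -0.05, Pecam1 at -0.01 and Pdgfrb at 0.04 to Esam at 0.16 and Tek at 0.26. The summed signal of all 11 with a probe set ranged from 1464 to 1753 on dehydrated and from 984 to 1293 on control arrays, and only Vwf was too dim for the test. The part of these cells in the Epas1 values was not tested.

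Hif1a, the widespread alpha subunit, read 1193, 985, 1216, 1055 and 887 on dehydrated and 949, 1054, 928, 957 and 832 on control arrays. Dehydrated 1 and 3 were above every control and dehydrated 4 barely so, with a log2 change of 0.17 ± 0.09 SE (limma adjusted p = 0.346). Adjusted for the ratio of 3' to 5' probes, the Hif1a change was 0.12 (limma adjusted p = 0.653). The hydroxylase genes had lower means on dehydrated arrays and did not pass. Egln1, the main oxygen sensor, read 94.1 to 131 against 116 to 140 (log2 change -0.10 ± 0.11 SE, adjusted p = 0.682), and Egln3, a hydroxylase that is itself a HIF target, read 20.5 to 38.0 against 24.1 to 44.5 (-0.34 ± 0.19 SE, adjusted p = 0.373).

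Of the hypoxia targets, 1 of 5 tested fell, none rose and 4 did not pass, where 0.784% of all tested probe sets fell and 1.68% rose. At an unadjusted limma p under 0.05 the counts were 1 lower and 3 higher (8.66% and 8.70% of all tested probe sets). The exact permutation test gave the same counts. The median change was 0.21 on the log2 scale, beside -0.01 over all tested probe sets. It was 0.16 to 0.25 over all alternatives, and 4 of the 5 genes had a positive change in each of them. In the reported fit 52.6% of all tested probe sets had a negative change.

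Ankrd37, an ankyrin repeat protein gene known chiefly as a direct HIF target, was the member that fell. It read 84.2, 97.0, 109, 109 and 108 on dehydrated and 142, 133, 122, 142 and 137 on control arrays, with no overlap. The fall was 0.40 on the log2 scale (± 0.10 SE, 95% interval -0.61 to -0.19, 1.32-fold lower, limma adjusted p = 0.0408). The call ended in 8 of 10 fits that left out 1 array (all except those without dehydrated 4 or dehydrated 5, with an adjusted p of at most 0.101), on adjusting for the ratio of 3' to 5' probes (-0.39, adjusted p = 0.0823), with quantile normalization (0.0509), with median centring (0.0855), without a filter on dim probe sets (0.0578) and without an intensity trend (0.0628). The size of the change moved little, between -0.44 and -0.34 over 22 alternatives.

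Adm encodes adrenomedullin, a vasodilator peptide induced by low oxygen. It read 166, 167, 210, 190 and 235 on dehydrated and 116, 170, 151, 144 and 138 on control arrays. Dehydrated 1 and 2 lay below control 2 and the other 3 above every control, so the groups overlapped slightly. The log2 change was 0.41 ± 0.12 SE (1.33-fold, limma adjusted p = 0.0681), about the size of the Ankrd37 change with the opposite sign. Adjusted for the ratio of 3' to 5' probes it was 0.54 and passed (adjusted p = 0.00978), and without dehydrated 5 and control 1 it was 0.27 (adjusted p = 0.141).

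Bnip3 and Bnip3l encode related receptors that mark mitochondria for removal. Bnip3 read 772, 724, 755, 662 and 571 on dehydrated and 570, 638, 576, 634 and 575 on control arrays, and all dehydrated arrays except dehydrated 5 were above every control (log2 change 0.21 ± 0.08 SE, limma adjusted p = 0.204). It passed without dehydrated 5 (0.28, adjusted p = 0.0299) and in no other alternative. Bnip3l read 1119 to 1376 and 1087 to 1262 (0.14 ± 0.07 SE, adjusted p = 0.341), while its other tested probe set gave -0.03 ± 0.07. Adjusting for the ratio of 3' to 5' probes gave 0.16 for Bnip3 (limma adjusted p = 0.464) and 0.08 for Bnip3l (0.708).

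Ndrg1, a stress-induced gene also strong in myelinating glia, read 504, 405, 477, 501 and 564 on dehydrated and 423, 416, 452, 353 and 427 on control arrays. Only dehydrated 2 lay within the control range (log2 change 0.24 ± 0.09 SE, limma adjusted p = 0.188). Adjusted for the ratio of 3' to 5' probes, the Ndrg1 change was 0.31 (limma adjusted p = 0.0907). Car9, the membrane carbonic anhydrase that is among the steepest HIF targets in tumours, was at the dim end of the array in both groups, at 3.40 to 19.8 and 4.50 to 14.3 (exact permutation p = 0.437).

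**Figure D3:**
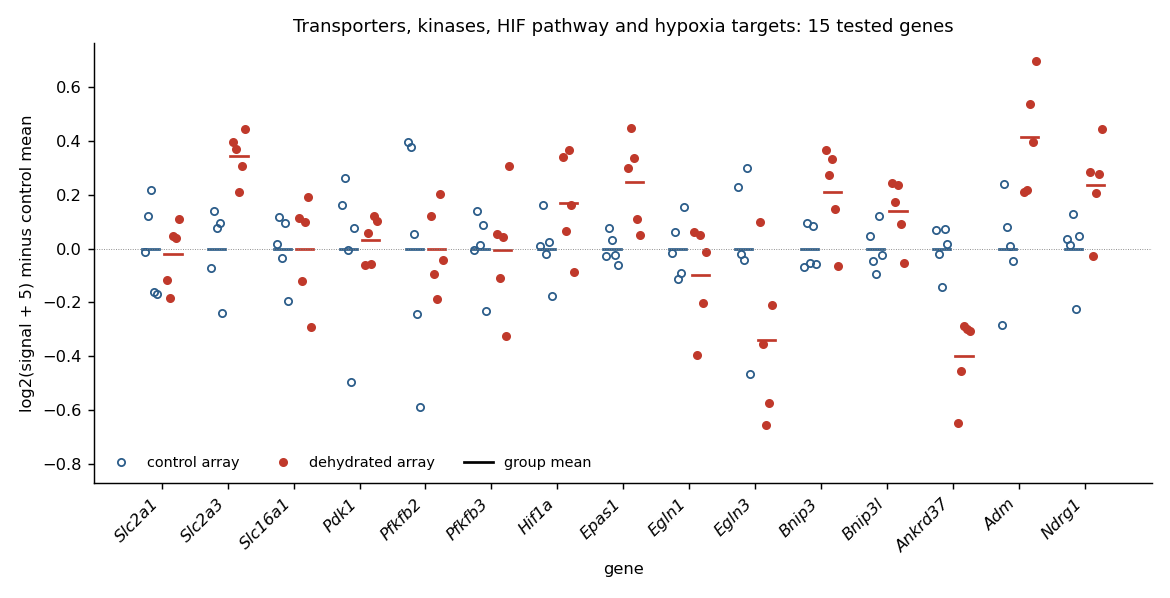
Signal of the 15 tested transporters, kinases, HIF system genes and hypoxia targets on each array, as log2(signal + 5) minus the control mean of the gene, with control arrays as open and dehydrated arrays as filled circles and lines at the group means. Slc2a3 lies wholly above and Ankrd37 wholly below the controls, while Epas1, Bnip3, Adm and Ndrg1 overlap them.

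Promoter sequence was set beside these values, to show before which of the genes the HIF core occurs. The 250 bases before the annotated start were read from RefSeq (build GRCr8) for 30 of the 34 genes, and Bnip3l, Ndrg1, Pgk1 and Slc2a3 had no entry. The motifs ACGTG and GCGTG were searched on both strands, so that the palindrome CACGTG, which other factors also bind, counts once on each. A match lay before at least 1 start of 19 of the 30 genes (63.3%), against 39.6% of all 27457 genes with an entry (36.7% of 33469 windows). Among the enzymes 11 of 16 had a match, and among the other genes 8 of 14. A match is a string of letters and not a shown binding site.

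The 5 windows below were chosen after the values were seen, and capitals mark the motif matches. Ankrd37 fell (chr16:53001257-53001506, plus strand), while Ldha (chr1:106507842-106508091, plus strand) and Bnip3 (chr1:203154963-203155212, minus strand) did not pass, and each of these 3 windows holds 4 matches in 3 separate stretches. Eno3 (chr10:55868936-55869185, plus strand) and Tpi1 (chr4:159305089-159305338, minus strand) fell and hold none. For Ankrd37 and Eno3 the start used is not the outermost end of the gene in the RefSeq gene table.
Ankrd37: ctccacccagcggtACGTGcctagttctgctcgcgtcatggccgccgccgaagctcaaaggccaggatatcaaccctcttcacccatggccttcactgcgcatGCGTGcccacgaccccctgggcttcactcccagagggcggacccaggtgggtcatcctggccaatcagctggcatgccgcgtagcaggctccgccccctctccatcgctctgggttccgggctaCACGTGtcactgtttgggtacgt
Ldha: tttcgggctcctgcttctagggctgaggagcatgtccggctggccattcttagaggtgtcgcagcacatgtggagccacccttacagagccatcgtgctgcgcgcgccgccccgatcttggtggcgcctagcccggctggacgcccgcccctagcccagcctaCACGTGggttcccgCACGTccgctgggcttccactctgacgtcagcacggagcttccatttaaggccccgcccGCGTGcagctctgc
Bnip3: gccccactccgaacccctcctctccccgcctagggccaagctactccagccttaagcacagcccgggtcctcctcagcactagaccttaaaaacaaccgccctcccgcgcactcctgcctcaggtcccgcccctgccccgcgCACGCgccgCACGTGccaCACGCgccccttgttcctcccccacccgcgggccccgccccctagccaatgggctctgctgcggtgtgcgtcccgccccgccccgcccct
Eno3: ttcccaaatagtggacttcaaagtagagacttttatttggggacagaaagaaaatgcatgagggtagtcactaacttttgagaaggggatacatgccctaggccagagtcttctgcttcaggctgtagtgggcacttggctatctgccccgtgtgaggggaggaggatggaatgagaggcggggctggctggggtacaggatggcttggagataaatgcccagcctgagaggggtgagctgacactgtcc
Tpi1: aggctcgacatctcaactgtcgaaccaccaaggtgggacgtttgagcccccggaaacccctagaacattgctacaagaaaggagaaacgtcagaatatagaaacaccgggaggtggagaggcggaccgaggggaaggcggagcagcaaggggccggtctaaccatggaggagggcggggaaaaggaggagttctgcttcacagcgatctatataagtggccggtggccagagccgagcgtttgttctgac

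The Ankrd37 stretches begin 236, 147 and 23 bases before the start, those of Ldha 87, 73 and 14 bases, and those of Bnip3 108, 99 and 90 bases. All 3 genes carry the palindrome CACGTG, and their log2 changes were -0.40, -0.09 and 0.21. The window of Adm, with the largest positive change of the 30 genes, holds no match. For Adm too, the start used is not the outermost end of the gene in the RefSeq gene table.

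Related genes were also compared within each array, which shows unequal change and nothing about which of them is more abundant. Of 9 pairs, none passed an adjusted p of 0.05 (exact two-sided permutation tests, Benjamini-Hochberg over the 9). With 5 against 5 arrays a pair that differed alone could not go below an adjusted p of 0.0714, so a missing pass says little. Only 1 pair had an unadjusted exact p under 0.05. This was Slc2a3 against Slc2a1, whose log2 ratio was 0.26 ± 0.17 on dehydrated and -0.11 ± 0.15 on control arrays (SD, n = 5, exact p = 0.0159, adjusted p = 0.143). Dehydrated 3 overlapped control 4 in this ratio, and the other dehydrated arrays lay above every control.

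The Aldoc to Aldoa ratio had a change of 0.17 (exact p = 0.119, adjusted p = 0.482) and the Ldha to Ldhb ratio one of -0.05 (exact p = 0.627, adjusted p = 0.806). The values were 0.07 for Bnip3 to Bnip3l, -0.14 for Eno2 to Eno1 and -0.09 for Pfkp to Pfkm, with adjusted exact p of at least 0.482. For Pfkfb3 to Pfkfb2 the value was -0.01. The ratios with Hk2 and Slc16a3 rest on probe sets too dim for the test and gave -0.38 and -0.03.

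**Figure D4:**
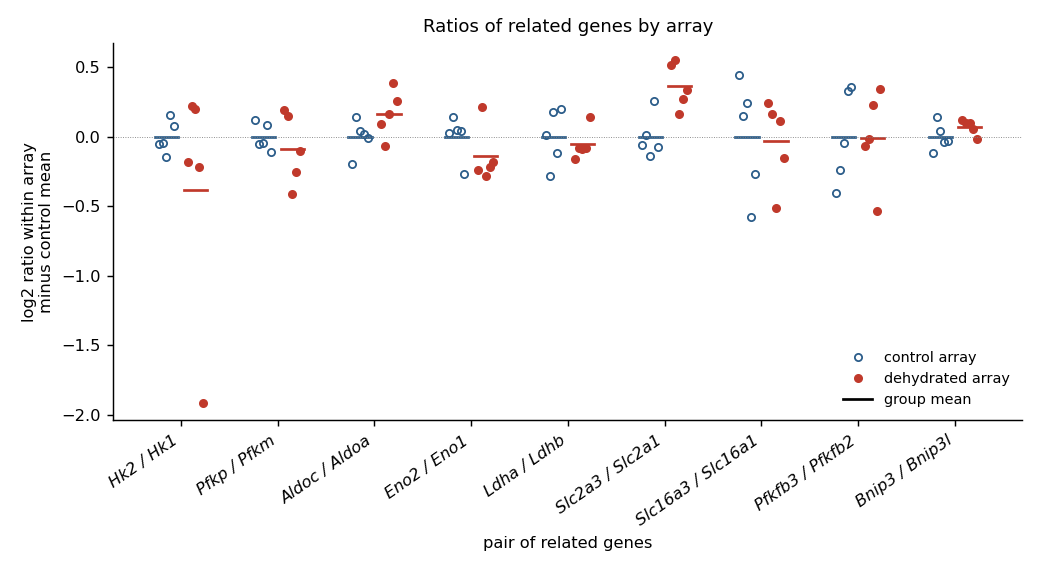
Log2 ratio of related genes on each array, minus the control mean of that ratio, for 9 pairs, with control arrays as open and dehydrated arrays as filled circles and lines at the group means. The Slc2a3 to Slc2a1 ratio is shifted up by 0.37, and the lowest point of Hk2 to Hk1 is dehydrated 5, where Hk2 read 2.70.

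Over all enzymes together, the median log2 deviation from the control mean was -0.12, -0.14, -0.10, -0.07 and -0.04 on dehydrated arrays 1 to 5 and 0.05, -0.12, 0.06, -0.06 and 0.08 on controls 1 to 5, so that controls 2 and 4 lay among the dehydrated arrays. For the hypoxia targets it was 0.24, 0.18, 0.24, 0.15 and -0.05 on dehydrated and 0.04, 0.01, -0.05, 0.07 and -0.02 on control arrays. Dehydrated 5, the array with the lowest 3' to 5' ratio of its group, was the one dehydrated array inside the control range for the hypoxia targets. The part of RNA integrity in this was not tested.

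Of the wider pathways, 77 of 109 listed genes were tested, 4 rose and none fell (limma, 5.19%, against 2.46% of all tested probe sets). The lists were chosen with earlier results of these data known, so these shares do not test the pathways. None of 8 other glycolysis genes, 12 citric acid cycle genes, 6 pentose phosphate genes, 9 glycogen genes and 3 other oxygen sensing factors passed. Their smallest p-values belonged to Pfkfb4, a kinase related to Pfkfb3 (log2 change -0.38, adjusted p = 0.177), Suclg1 of the citric acid cycle (0.20, adjusted p = 0.242), Pgd of the pentose phosphate pathway (-0.30, adjusted p = 0.385), the glycogen primer Gyg1 (0.12, adjusted p = 0.352) and the hydroxylase Egln2 (0.16, adjusted p = 0.453). The median changes of these 5 lists lay between -0.06 and 0.08.

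Of 14 tested genes of pyruvate entry and lactate export, only Pdk4 rose, the relative of Pdk1 that is induced by fasting and glucocorticoids. It read 113 to 151 on dehydrated and 61.8 to 89.1 on control arrays, while Pdk1 overlapped fully. Of 25 tested other hypoxia-responsive genes, 3 rose and none fell, where 1.68% of all tested probe sets rose. Angptl4, which fasting also induces, read 120 to 227 against 21.9 to 47.4. Vegfa, the vessel growth factor, read 453, 357, 496, 457 and 524 against 318, 354, 369, 306 and 310, so that dehydrated 2 lay within the control range (log2 change 0.45 ± 0.10 SE, limma adjusted p = 0.0196).

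Mif, a secreted cytokine gene with a HIF-responsive promoter, read 1491, 1526, 1679, 1588 and 1394 against 1277, 1201, 1171, 1322 and 1255, with no overlap (log2 change 0.30 ± 0.07 SE, limma adjusted p = 0.0240). The calls of Vegfa and Mif ended in 3 and 5 of the 10 fits without 1 array (without dehydrated 3, control 4 or control 5 for Vegfa, and without dehydrated 3, dehydrated 4, control 2, control 3 or control 5 for Mif, highest adjusted p 0.0715 and 0.0871), and both ended without an intensity trend (0.0738 and 0.100). That of Mif also ended without a filter on dim probe sets (0.0531) and on adjusting for the ratio of 3' to 5' probes (0.0649). The other 22 genes of this list did not pass, and its median change was 0.04.

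**Figure D5:**
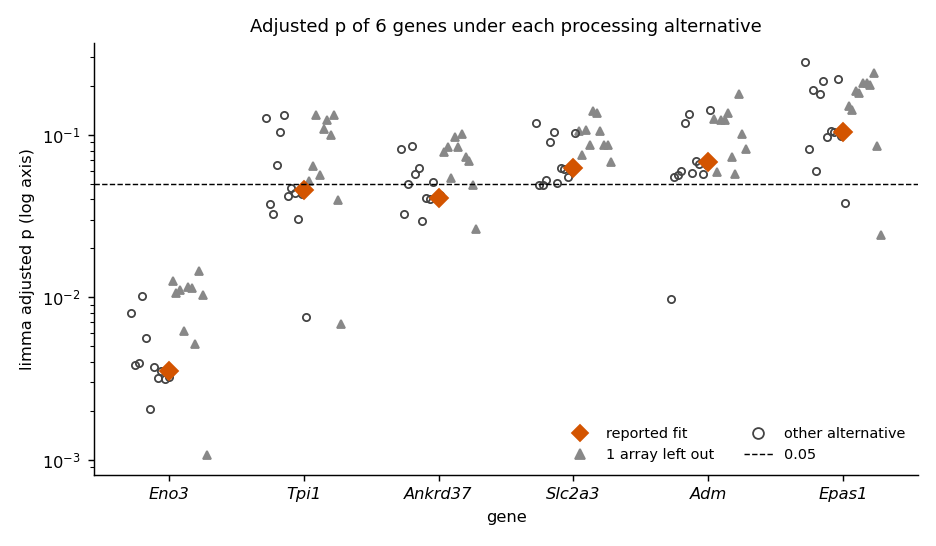
Limma adjusted p (log axis) of 6 genes under the reported fit (diamond), with 1 array left out (triangles) and under other alternatives (circles), with 0.05 as a dashed line. Every point of Eno3 lies under the line, while those of Tpi1 and Ankrd37 fall on both sides of it and nearly all of Slc2a3, Adm and Epas1 lie above it.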

How the data were processed

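Signals were measured on 10 Affymetrix rat genome arrays, 5 per group, each from a separate pool of 5 animals. The authors deposited 1 linear intensity per probe set and array, made with GCOS 1.2 per the submitters' processing notes, with algorithm, genome build and detection calls not given in the sources used here. Every array had a mean of about 100 after trimming 2% at each end, so changes are relative to the average probe set. No columns were identical, and none was left out. The number of arrays limits the precision.

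Values were taken as log2(signal + 5), which understates changes of dim genes. After removal of 57 controls, the brightest 60% by mean log2 value were tested (18625, down to a signal of about 22.4). Tests were two-sided, from limma 3.58.1 (R 4.3.3) with an intensity trend, adjusted by Benjamini-Hochberg over all tested probe sets. Exact permutation tests used all 252 splits of the arrays in Python 3.11.15. P-values measure the spread between pools. On simulated data with 18625 probe sets, changes of 0.25, 0.5, 1 and 2 on the log2 scale were recovered in 4.00%, 44.0%, 90.0% and 100.0% of 50 each, with 4 false among 123 calls. The simulated noise was normal and independent between probe sets, with no effect shared by an array. The real arrays differ in RNA integrity, so these rates need not hold for them. Each of the 34 genes was to be named. Of each pathway list, up to 4 passing genes or the one with the smallest p were named, and of each marker list up to 3 passing genes. Members and lists were chosen with earlier results of these data known. Alternatives changed scaling, pseudocount, filter, variance model, RNA integrity covariate, probe set choice and arrays.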

Additional observations from a re-analysis of the deposited data

Results flagged for a closer look

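The Pfkp signal of control 2, 363.8, lay far below the other 4 controls (399.7 to 408.4), and it was the one value to stand apart by Dixon's test among 62 groups of 5 arrays examined, where chance gives about 1 in 20.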

How the results depend on the processing

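Of the 30 tested genes, 3 passed as reported. The count was 1 without a filter on dim probe sets, with median centring and without an intensity trend, and 1 to 5 when 1 array was left out. The 5 came without dehydrated 5, and the 1 came without dehydrated 1, 2 or 3 or any control. Over all probe sets it was 240 without an intensity trend, 1156 without dehydrated 5, 218 without dehydrated 3 and 1398 without dehydrated 5 and control 1, beside 458. Median centring gave 456 higher and 113 lower (80.1% higher), beside 312 and 146 (68.1%). In the wider pathways 4 genes passed, 2 without an intensity trend and 2 to 6 with 1 array left out. For the 9 ratios of related genes the count of passes was 0 throughout, which says nothing about stability, since 1 pair alone could not pass. RNA integrity, as the 3' to 5' ratio, differed by 0.24 to 0.56 with 1 array left out, with exact p = 0.0476 without control 1, and by 0.69 without dehydrated 5 and control 1 (exact p = 0.0286, the smallest that 4 against 4 arrays allow), a setting added for this ratio after the data were seen. No gene that passed as reported changed direction. No paired analysis was possible because the labels carry no replicate numbers. Signal over background is unknown, which limits Hk2, Slc16a3 and Car9 most.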
